A study of Mus musculus with 15 samples.

Results

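The 5 genes described here encode enzymes that use or make ketone bodies: Bdh1, Oxct1 and Acat1 of the mitochondrion, and Aacs and Acat2 of the cytosol. They were chosen by gene symbol, and all 5 were among the 13602 genes of the deposited count table. The tissue was gastrocnemius, the large calf muscle, which is rich in fast fibres, and all mice were male. The 8 control mice carried the floxed Cpt1b gene and were labelled wild type, and the 7 knockout mice lacked Cpt1b in skeletal muscle. Cpt1b encodes the carnitine palmitoyltransferase of muscle, the gate by which mitochondria take up long-chain fatty acids. Titles and series text speak of chow (12 to 14 weeks), but the diet given for each of the 15 samples, in both groups alike, is 45% HFD. Neither the mice's age nor the promoter that drove the deletion is stated in the sources used here. The comparison asked how transcripts of these enzymes differ between muscle of the knockout and of the control mice. These data do not measure fatty acid entry.

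Ketone bodies are made mainly in liver, from acetyl-CoA, and are burned in muscle, heart and brain. In muscle mitochondria BDH1 oxidises 3-hydroxybutyrate to acetoacetate. OXCT1, also called SCOT, moves CoA from succinyl-CoA onto acetoacetate, and ACAT1 splits the acetoacetyl-CoA into acetyl-CoA for the citric acid cycle. ACAT1 also acts in isoleucine breakdown and can run in the reverse direction. In the cytosol AACS activates acetoacetate with ATP, and ACAT2 joins acetyl-CoA units at the start of the mevalonate pathway.

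The libraries were SAGE libraries. SAGE counts 1 short tag per transcript, taken next to the last anchoring site before the 3′ end, so that tag levels of different genes can be compared without a correction for length. The deposited table names genes by symbol only. The tags below were therefore predicted from GENCODE M21 transcripts (GRCm38) as 27 bases from the last CATG, the usual SAGE site, which the labels do not state. They are shown because they are the stretches on which the counts of these genes would rest, with the anchoring site in capitals. Only tags of principal transcripts are shown, and some other protein-coding transcripts of Oxct1, Bdh1 and Acat2 have a different predicted tag. Bdh1 has 2 lines because its principal transcripts end at different places.

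Oxct1: CATGatattttttaaaaaatgtgttaa
Acat1: CATGctgagacaagacccaggcccgca
Bdh1, shorter transcripts: CATGacccattttcctggagccatctc
Bdh1, longest transcript: CATGcactcacacacacacacacacat
Aacs: CATGcctgtcacctcacagctggctgt
Acat2: CATGgggattcggcttctgttacgaac
Acat3: CATGttgcatactgttctggttggtgt

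None of these tags was the last tag of a transcript of any other gene in the annotation. The Oxct1 tag lies at chr15:4155286-4155312 on the plus strand, in the 3′ UTR in exon 17 of 17, and starts 59 bases before the transcript's end. The Acat1 tag lies at chr9:53580721-53580747 on the minus strand, in the 3′ UTR in exon 12 of 12. For Bdh1, the tag of the shorter transcripts lies in the coding sequence at chr16:31457046-31457072 and that of the longest in the 3′ UTR at chr16:31458024-31458050, both on the plus strand in exon 7 of 7. The Aacs tag lies at chr5:125516790-125516816 on the plus strand, in the 3′ UTR in exon 18 of 18. The Acat2 tag lies at chr17:12943382-12943408 on the minus strand, in the 3′ UTR in exon 9 of 9. Acat3, a close relative of Acat2 that lies beside it on chromosome 17 (12923813 to 12940600), was added after its values were seen and has a different predicted tag. Acat3 was counted 0 to 9 times per library, and how tags were assigned to genes is not stated in the sources used here. Oxct1 overlaps the antisense genes BC037032 and Gm15632, Bdh1 overlaps the antisense gene Gm15743, and Aacs overlaps the miRNA gene Gm27551 on its own strand. Whether strand was used in counting is not stated either, and whether these partners cover the tag sites was not examined. Whether their counts were kept apart from those of Oxct1, Bdh1 and Aacs is therefore not known.

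Total counts ran from 8334436 to 19397255 per library. Levels below are CPM, tag counts scaled to the TMM-adjusted total of the library. Log2 fold changes compare knockout with control, are positive where the knockout was higher and carry a standard error (SE). They come from edgeR's quasi-likelihood test, with p adjusted over the 11062 genes tested. A gene was called at an adjusted p under 0.05. Of all tested genes 2.17% were called, 1.67% higher and 0.497% lower in the knockout. Tags of the targeted gene Cpt1b ranged over 4.44 to 13.1 CPM among controls (median 6.51) and 1.10 to 6.46 CPM among knockouts (median 3.83). The groups overlapped, and Cpt1b was lower but not called (log2 -1.03 ± 0.31, edgeR adjusted p = 0.103). For Cpt1b alone the unadjusted two-sided exact permutation p on log2 CPM was 0.00389 over 6435 splits. Where the deleted part lies relative to the Cpt1b tag is not stated, so this level may not check the genotype. Control replicate 7 and knockout replicate 4 lay farthest out on the leading principal component in their groups. Of the 10 skeletal muscle markers every one was detected, with summed levels of 119636 to 179848 CPM in controls and 105708 to 167645 CPM in knockouts.

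Tags of Acat1 and Oxct1, the enzymes of the last steps of ketone body breakdown, were higher in knockout muscle, 1.92-fold and 1.49-fold. Of the 4 ketone enzymes that passed the low-count filter these 2 were called, both higher, where 1.67% of all tested genes were called higher. Their median log2 fold change was 0.45 over the 4 genes tested and 0.0047 over all 11062. Bdh1 and Acat2 were not called. Aacs was too scarce to pass the filter.

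**Figure D1:**
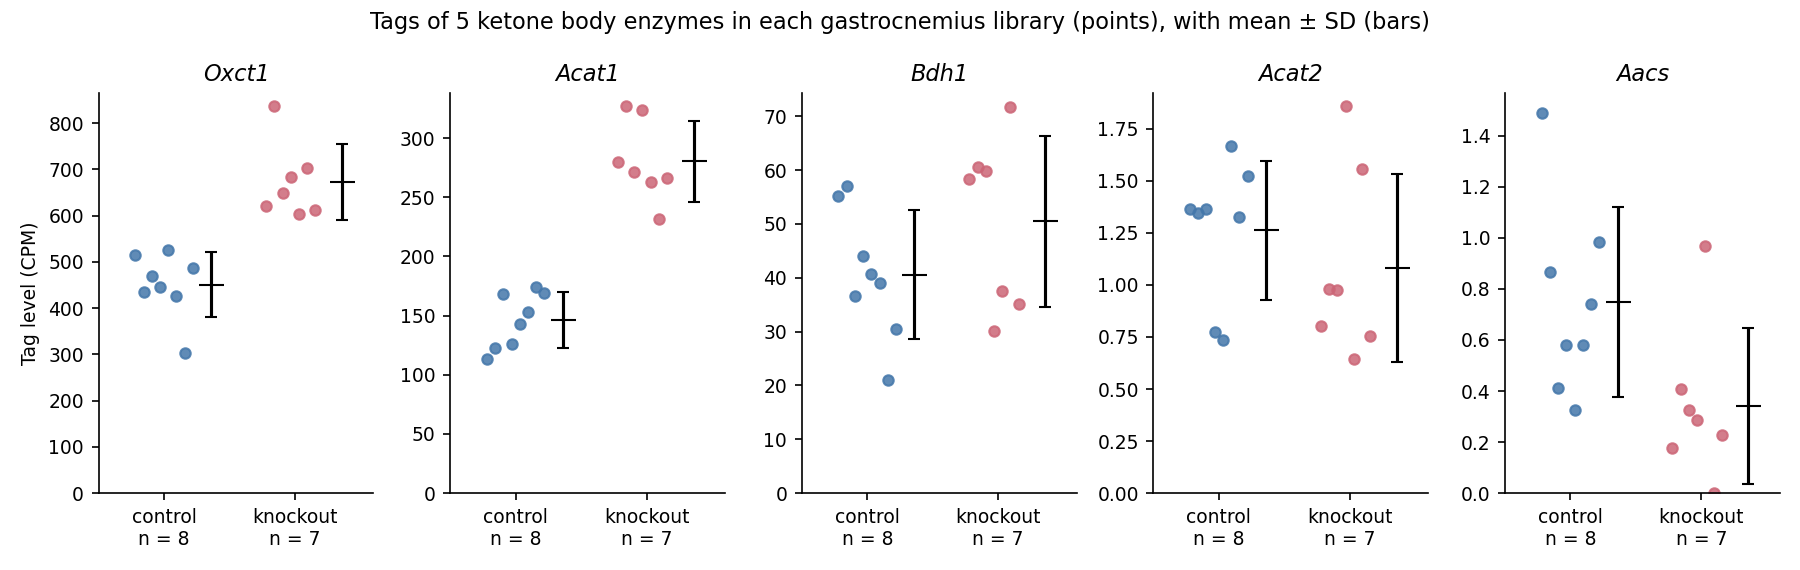
Tag levels in CPM (vertical axes, from 0, on a separate scale for each gene) of the 5 ketone enzymes in each control (blue, n = 8) and knockout (red, n = 7) library, with bars for mean ± SD. All 7 knockout points of Oxct1 and Acat1 lie above every control point, and the groups overlap for Bdh1, Acat2 and Aacs.

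Acat1 (chromosome 9, 53580522 to 53610382, protein-coding) encodes the mitochondrial acetoacetyl-CoA thiolase. Its lowest, median and highest levels were 113, 148 and 174 CPM in controls and 232, 272 and 327 CPM in knockouts. Every knockout library was above every control library, which held for 0.967% of all tested genes. Controls averaged 146 ± 23.6 CPM (SD, n = 8) and knockouts 280.5 ± 34.1 CPM (SD, n = 7). The log2 fold change was 0.94 ± 0.13 (edgeR adjusted p = 0.000164), an approximate 95% interval of 1.62-fold to 2.27-fold. The counts behind it ran from 912 to 6797 tags per library, so counting error was small beside the spread between mice (coefficient of variation 16.2% in controls and 12.2% in knockouts). In each fit without 1 library the gene stayed called, with log2 fold changes of 0.89 to 0.98.

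Oxct1 (chromosome 15, 4026383 to 4155344, protein-coding) encodes the CoA transferase that commits acetoacetate to oxidation, a step that liver lacks. Its lowest, median and highest levels were 303, 458 and 526 CPM in controls and 604, 648 and 837 CPM in knockouts. Here too no knockout library overlapped with a control library. Control replicate 7, at 303 CPM, lay well under the next control at 427 CPM, and knockout replicate 2, at 837 CPM, lay above the next knockout at 703 CPM. The mean was 451 ± 69.9 CPM in controls (n = 8) and 673 ± 81.5 CPM in knockouts (n = 7), a log2 fold change of 0.58 ± 0.13 (edgeR adjusted p = 0.0184). Without knockout replicate 2 the log2 fold change was 0.51 and the call was lost (edgeR adjusted p = 0.0691), where 1.44% of all genes were called. Without control replicate 7 the log2 fold change was 0.51 (edgeR adjusted p = 0.0126), where 4.25% were called.

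Bdh1 (chromosome 16, 31422280 to 31458901, protein-coding) encodes the inner-membrane dehydrogenase that interconverts 3-hydroxybutyrate and acetoacetate. Its lowest, median and highest levels were 21.0, 39.9 and 57.0 CPM in controls and 30.1, 58.4 and 71.7 CPM in knockouts. Knockouts 1, 2, 3 and 6 lay at 58.4 to 71.7 CPM, above every control, while knockouts 4, 5 and 7 lay at 30.1 to 37.5 CPM, within the control range. The log2 difference of 0.32 ± 0.22 did not pass (edgeR adjusted p = 0.540). Its approximate 95% interval, -0.11 to 0.75, holds both no difference and the change of Oxct1. The lowest libraries of each group were control replicate 7 and knockout replicate 4, the libraries that lay farthest out on the leading component. When the fit also held the first surrogate variable, a component estimated from all genes, the log2 difference of Bdh1 was 0.45 ± 0.12 and passed (edgeR adjusted p = 0.0287), where 5.59% of all genes were called. Without control replicate 7 and knockout replicate 4 it was 0.31 (edgeR adjusted p = 0.355).

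Within a library Oxct1 tags outnumbered Acat1 tags in both groups. The ratio of Oxct1 to Acat1 was 1.74 to 4.54 in controls (median 3.20) and 2.11 to 3.03 in knockouts (median 2.30). Acat1 in turn outnumbered Bdh1, by 2.05 to 8.30 in controls (median 3.71) and by 3.23 to 10.8 in knockouts (median 5.39). In order of level the genes ran Oxct1, Acat1, Bdh1, Acat2 and Aacs in both groups. The ranges of neighbours in that order were apart within each group down to Acat2, and those of Acat2 and Aacs overlapped.

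The cytosolic enzymes were counted 0 to 39 times per library. Acat2 (chromosome 17, 12942890 to 12960747, protein-coding), the cytosolic thiolase, had a lowest, median and highest level of 0.734, 1.36 and 1.67 CPM in controls and of 0.645, 0.978 and 1.86 CPM in knockouts. The groups overlapped throughout, and knockout replicate 4 was the highest of all libraries. Its log2 difference was -0.21 ± 0.27 (edgeR adjusted p = 0.730), with an approximate 95% interval of -0.73 to 0.31. The tags summed to 127 over the controls and 104 over the knockouts, 1.28 CPM (exact Poisson 95% interval 1.06 to 1.52) and 1.14 CPM (0.930 to 1.38). These intervals cover counting error only. Leaving out knockout replicate 4 moved the log2 difference to -0.43 (edgeR adjusted p = 0.573). No change of Acat2 was detectable at this depth.

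Aacs (chromosome 5, 125475814 to 125517410, protein-coding), the acetoacetyl-CoA synthetase of the cytosol, was the scarcest of the 5. Controls 1 to 8 gave 12, 9, 6, 6, 4, 8, 14 and 11 tags, and knockouts 1 to 7 gave 2, 5, 4, 6, 12, 0 and 3 tags. The lowest, median and highest levels were 0.326, 0.662 and 1.49 CPM in controls and 0, 0.286 and 0.967 CPM in knockouts. Only knockout replicate 5, at 0.967 CPM, lay above the control median, and the other 6 lay below it. The 0 tags of knockout replicate 6 are what a scarce transcript can give and do not show absence. Over the groups the tags summed to 70 and 32, or 0.703 CPM (exact Poisson 95% interval 0.548 to 0.889) and 0.350 CPM (0.240 to 0.495). These intervals too cover counting error only and leave out the spread between mice. The coefficient of variation was 49.8% in controls and 89.0% in knockouts. In the fit without the filter, over all 13602 genes, the log2 difference was -1.04 ± 0.46 and did not pass (edgeR adjusted p = 0.358, unadjusted p = 0.0357), where 1.79% of genes were called. On log2 CPM of this gene alone the unadjusted two-sided exact permutation p was 0.0180 over 6435 splits. Without knockout replicate 5 the log2 difference was -1.52 (edgeR adjusted p = 0.135).

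Ratios within a library were compared between groups, since the library's scaling factor largely cancels in them. The prior count added to each value does not cancel for scarce genes. The log2 ratio of Acat1 to Acat2, mitochondrial against cytosolic thiolase, averaged 6.71 ± 0.38 among the 8 controls and 7.89 ± 0.49 among the 7 knockouts (mean ± SD). It was higher in the knockout by 1.18, with 6 of 7 knockouts above every control (two-sided exact permutation test, p = 0.000932, and 0.00280 when adjusted over the 3 ratios). In mean log2 CPM Acat1 differed by 0.95 and Acat2 by -0.23, so this ratio mostly repeats the change of Acat1. It is not separate evidence of a shift between the compartments. The log2 ratio of Oxct1 to Aacs, mitochondrial against cytosolic activation of acetoacetate, was 9.04 ± 0.63 and 10.6 ± 0.89. It was higher by 1.56, again with 6 of 7 knockouts above every control (two-sided exact permutation p = 0.00233, adjusted p = 0.00350). The size of this difference depended on the prior count of Aacs: it was 1.96 with a prior of 0.5, and 1.30 without knockout replicate 6, whose 0 Aacs tags left the prior alone to set its ratio. In mean log2 CPM Oxct1 differed by 0.59 and Aacs by -0.97, so this ratio too holds the change of Oxct1 already given. The log2 ratio of Oxct1 to Bdh1, successive steps of the same route, was 3.51 ± 0.35 and 3.79 ± 0.44. The difference of 0.28 was not called (two-sided exact permutation p = 0.201, adjusted p = 0.201), so the ratio did not separate Oxct1 from Bdh1.

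**Figure D2:**
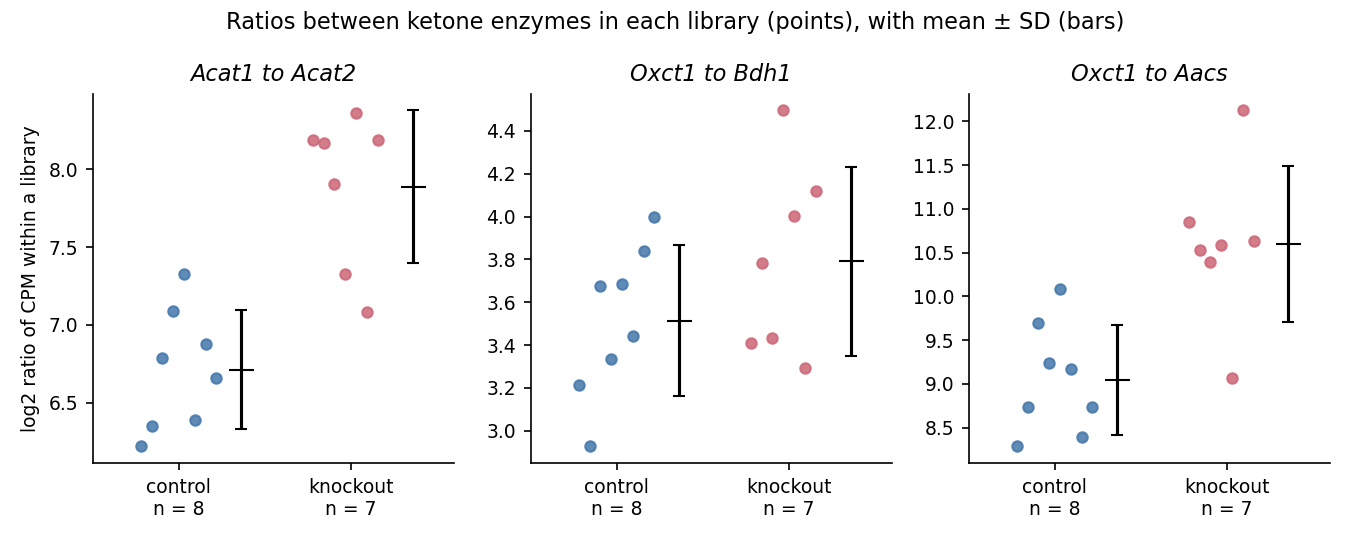
Log2 ratio of CPM between pairs of ketone enzymes in each control (blue, n = 8) and knockout (red, n = 7) library, with bars for mean ± SD. The axes do not start at 0. In Acat1 to Acat2 and in Oxct1 to Aacs 6 of 7 knockouts lie above every control, and in Oxct1 to Bdh1 only 3 do.

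Among mice of the same group the mitochondrial enzymes varied in different directions. After each group's mean was subtracted, Bdh1 tended to be low where Acat1 was high over the 15 libraries (Pearson r = -0.66, Spearman rho = -0.56). Control replicate 7 was 0.27 above its group mean for Acat1 and 0.88 below it for Bdh1, on the log2 CPM scale, and knockout replicate 6 was 0.27 below for Acat1 and 0.57 above for Bdh1. Bdh1 and Oxct1 leaned the same way (r = 0.56, rho = 0.44), and Oxct1 and Acat1 showed little relation (r = -0.16, rho = 0.02). These values are descriptions. The leading principal component held 55.8% of the variance over genes with a mean of at least 10 CPM. It was not taken out here. The points share library, scaling and depth. Control replicate 7 lay far below the other controls for Bdh1 and Oxct1, and was narrowly the highest control for Acat1.

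**Figure D3:**
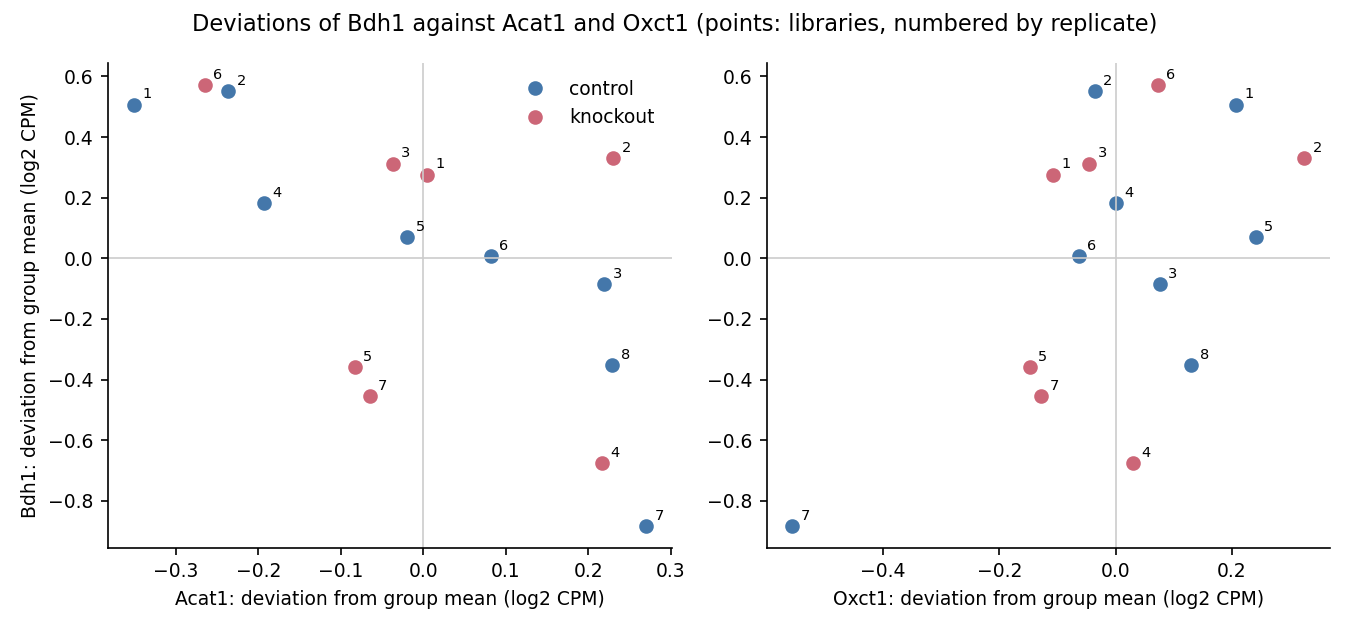
Deviation of Bdh1 from its group mean (vertical axes) against that of Acat1 (left) and Oxct1 (right), all on the log2 CPM scale, for control (blue) and knockout (red) libraries numbered by replicate. Bdh1 falls as Acat1 climbs (r = -0.66), and control replicate 7 lies at the low end of both Bdh1 and Oxct1.

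Genes with a mean of at least 10 CPM were ranked by the same within-group correlation with each tested ketone enzyme. Acat1 was closest to Decr1, the dienoyl-CoA reductase of fatty acid oxidation (r = 0.94), followed by the ribosomal protein gene Rpl26 (0.93) and the guanylate kinase Guk1 (0.93). Of these Decr1 was also higher in the knockout (log2 1.75, edgeR adjusted p = 8.4e-07), while Rpl26 (0.38) and Guk1 (0.38) were not called. Bdh1 was closest to Nipal3 (0.96), to Mlxipl, which encodes the carbohydrate-sensing factor ChREBP (0.95), and to the kinase gene Sbk1 (0.95), with log2 differences of -0.12, -0.43 and -0.61, none of them called. The closest genes to Oxct1 were less alike, Phf8 (0.77), Nkain1 (0.77) and Heatr5a (0.75). For Acat2 the coactivator gene Ppargc1a came first (r = 0.75), ahead of Fem1b (0.73) and Nhlrc1 (0.71). Both Acat2 and Ppargc1a peaked in knockout replicate 4 (1.86 and 95.5 CPM), and the few tags of Acat2 limit this comparison. These are the highest of the correlations computed for each enzyme (5479 genes for Oxct1, Acat1 and Bdh1, 5480 for Acat2) and carry no test.

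Bdh2, a cytosolic short-chain dehydrogenase related to Bdh1, was scarce too, at 2.73 ± 0.78 and 1.96 ± 0.75 CPM (mean ± SD, controls and knockouts, log2 -0.44 ± 0.25, edgeR adjusted p = 0.454), and was not called.

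Of 10 genes of ketone and monocarboxylate transport 6 were tested. None was called by edgeR, DESeq2 or voom, and 2 had an unadjusted p under 0.05. Of all genes DESeq2 called 3.41% and voom 2.11%, and 13.6% had an unadjusted edgeR p under 0.05. Slc16a1, the transporter MCT1 that carries ketone bodies and lactate, was at 36.4 to 77.6 CPM in the control and 64.2 to 99.0 CPM in the knockout libraries. Its log2 difference was 0.49 ± 0.15 (edgeR adjusted p = 0.112), and it passed with library size alone as the scaling, where 2.09% of all genes were called.

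Acat1 belongs to the thiolases, and several other thiolases and enzymes of the last steps of beta-oxidation rose too. Of 9 genes 8 were tested and all 8 were positive. Of these 5 were called higher and 0 lower, where 1.67% of all tested genes were called higher. The median log2 fold change of the 8 was 0.92 beside 0.0047 over all tested genes. Acaa2, the medium-chain mitochondrial thiolase, rose from 279 ± 153 to 842 ± 321 CPM (log2 1.59 ± 0.30), with wide spread in both groups. Hadha (log2 0.99 ± 0.11) and Hadhb (1.19 ± 0.18), the subunits of the trifunctional protein, rose, as did the hydroxyacyl-CoA dehydrogenase Hadh (1.01 ± 0.20). The fifth was the hydratase Echs1 (0.85 ± 0.19), named after its value was seen. The adjusted p of these 5 genes ran from 1.45e-05 for Hadha to 0.0229 for Echs1 (edgeR). The change of Acat1, 0.94, lay among these values.

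The genes of succinyl-CoA metabolism and acetyl-CoA use were all on the higher side, but none of the 10 was called by edgeR. DESeq2 called 1 and voom 0, and 5 had an unadjusted p under 0.05. Of all genes DESeq2 called 3.41% and voom 2.11%, and 13.6% had an unadjusted edgeR p under 0.05. The median log2 fold change of the 10 was 0.25, and all 10 were positive under each of the 4 scalings. Of all tested genes 50.6% were positive. Suclg2, a subunit of succinyl-CoA synthetase, came closest, at 103 ± 11.3 CPM in the control and 136 ± 14.5 CPM in the knockout libraries (log2 0.41 ± 0.11, edgeR adjusted p = 0.0529). Cs, the citrate synthase, was at 389 to 1512 CPM in the control and 785 to 1996 CPM in the knockout libraries (log2 0.83 ± 0.27, edgeR adjusted p = 0.148). Without control replicate 7 the count called was 4, as it was in the surrogate-variable fit, where 4.25% and 5.59% of all genes were called.

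Of 9 genes of leucine and isoleucine breakdown, the other routes to acetoacetate and to the Acat1 reaction, 1 was called, higher. Of all tested genes 1.67% were called higher. In this list 7 of 9 were positive. The called gene was Dbt, a subunit of the branched-chain dehydrogenase, at 71.6 ± 13.1 CPM in the control and 109 ± 11.6 CPM in the knockout libraries (log2 0.61 ± 0.13, edgeR adjusted p = 0.0142). The median of the list was 0.12. The count was 2 without control replicate 7 and by DESeq2, and 3 in the surrogate-variable fit. Of all genes these settings called 4.25%, 3.41% and 5.59%.

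The cytosolic pathways that Aacs and Acat2 feed were not called. Of 13 genes of cytosolic acetyl-CoA and the mevalonate pathway 11 were tested and 0 called by edgeR, DESeq2 or voom. Of all genes these called 2.17%, 3.41% and 2.11%. In the list 2 genes had an unadjusted p under 0.05, where 13.6% of all tested genes did. The median log2 fold change of the list was 0.13. Hmgcs1, the cytosolic HMG-CoA synthase, was at 26.4 ± 3.02 CPM in the control and 26.2 ± 4.19 CPM in the knockout libraries (log2 -0.01 ± 0.12, edgeR adjusted p = 0.973), a value that turned positive with library size alone as the scaling. Acss2, which makes acetyl-CoA from acetate, had the smallest p (log2 1.11 ± 0.37, edgeR adjusted p = 0.153) and was highest in control replicate 7 (15.3 CPM) and knockout replicate 4 (33.0 CPM). Without control replicate 7 the count called was 2, where 4.25% of all genes were called.

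**Figure D4:**
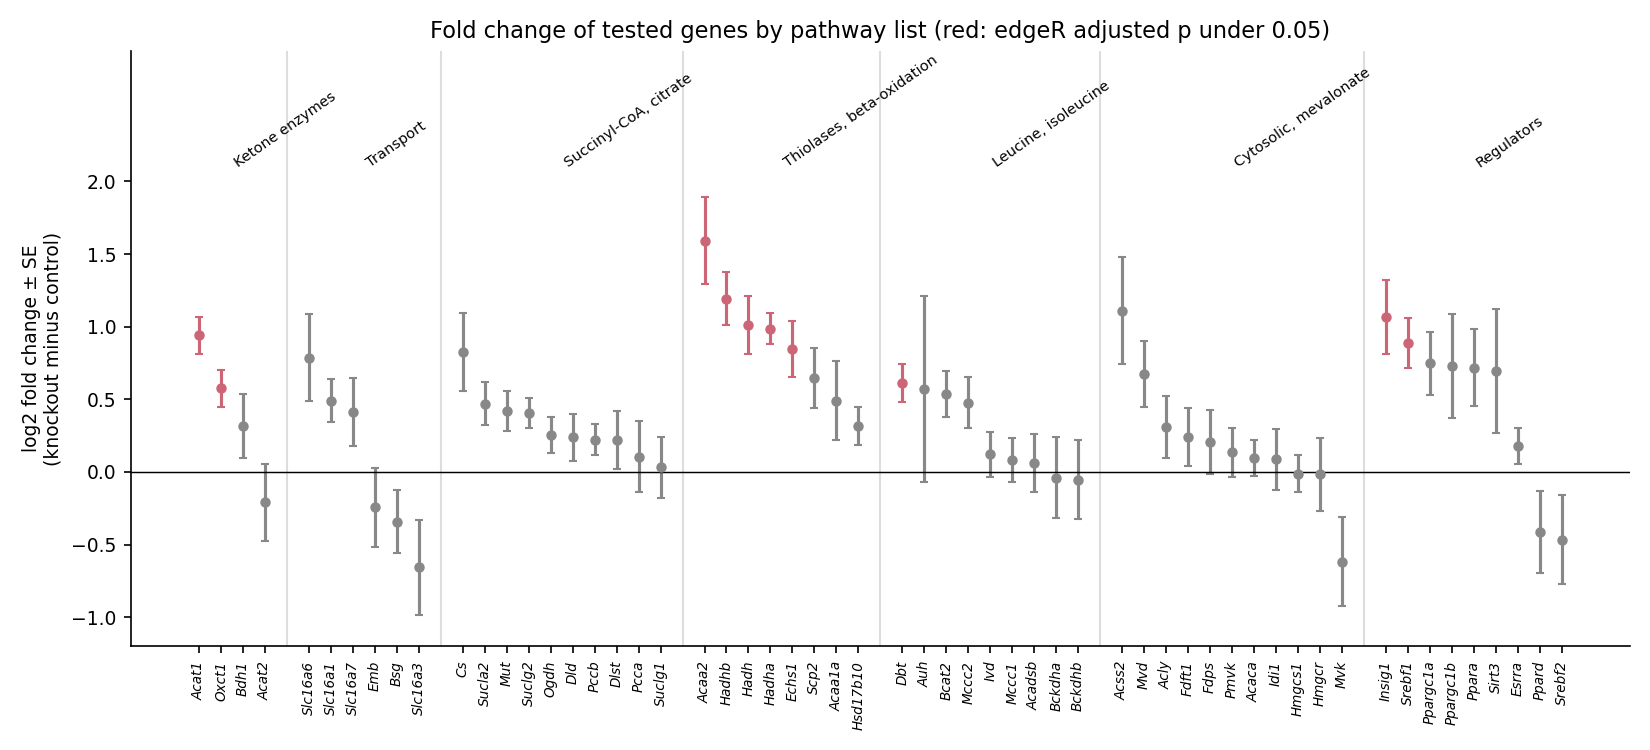
Log2 fold change of knockout minus control with SE (vertical axis) for each tested gene of the ketone enzymes and 6 related lists, red where called by edgeR. The thiolase list holds 5 called genes and the ketone enzymes 2, and Aacs is not drawn because it did not pass the filter.

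Of 9 regulators 7 were positive and 2 were called, both higher, where 1.67% of all tested genes were called higher. The 2 called were Srebf1, a factor that drives lipid synthesis (log2 0.89 ± 0.17), and Insig1, which restrains it (1.07 ± 0.26), with edgeR adjusted p of 0.00693 and 0.0331. Ppara and Ppargc1a, whose products drive oxidative genes, were at log2 0.72 ± 0.27 and 0.75 ± 0.22 and were not called (edgeR adjusted p = 0.225 and 0.0915). Ppara is named outside the naming rule, after its value was seen. The count called fell to 1 when any of controls 1, 2, 4, 5, 6 and 8 or of knockouts 2, 4, 5 and 7 was left out. In those fits 1.44% to 2.07% of all genes were called. The count was also 1 with library size alone as the scaling, where 2.09% were called. It was 4 without control replicate 7 and in the surrogate-variable fit, where 4.25% and 5.59% of all genes were called.

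Bulk tissue cannot tell apart more transcript per fibre from a larger share of fibres or cells that hold it. Of the 10 skeletal muscle markers, mostly genes of fast fibres, 9 were negative in the knockout, where 50.6% of all tested genes were positive. The median log2 of the 10 markers was -0.22. Among them 1 was called lower and 1 higher, where 0.497% and 1.67% of all tested genes were. Tnnt3, the fast troponin T, fell from 2591 to 3588 CPM in the 8 controls to 1654 to 2381 CPM in the 7 knockouts (log2 -0.65 ± 0.13, edgeR adjusted p = 0.00629). Every knockout was below every control for Tnnt3, which held for 0.226% of all tested genes. Mb, the myoglobin that stores oxygen in oxidative fibres, rose from 3093 ± 653 to 5048 ± 1373 CPM (log2 0.71 ± 0.17, edgeR adjusted p = 0.0376). Slow-fibre markers, whose fibres are rich in mitochondria, were all positive in the knockout (6 of 6, median log2 0.49) and 1 was called, the calcium pump Atp2a2, at 433 ± 121 and 776 ± 131 CPM (log2 0.84 ± 0.17, edgeR adjusted p = 0.00897). Their summed level was 1441 to 3668 CPM in controls and 2339 to 3933 CPM in knockouts, and most of that sum was Myl3 (2018 ± 592 and 2106 ± 602 CPM, log2 0.06 ± 0.23). Fibroblast markers summed to 2176 to 3848 CPM in controls and 1231 to 3083 CPM in knockouts, and 4 of the 6 were negative. Of the 6 edgeR called 0, DESeq2 1 and voom 0, and 3 had an unadjusted p under 0.05. Of all genes these methods called 2.17%, 3.41% and 2.11%, and 13.6% had an unadjusted edgeR p under 0.05. Adipocyte markers summed to 1529 to 2120 and 1344 to 3384 CPM with 1 of 8 called, lower. The deposited counts held no row for 2 of 8 macrophage, 3 of 6 erythroid and 1 of 5 satellite cell markers. The sums below leave these out. The summed ranges of macrophage (45.6 to 91.6 CPM in controls, 42.9 to 70.0 in knockouts), endothelial (174 to 287 and 164 to 256), erythroid (15.8 to 91.0 and 12.1 to 56.2), Schwann (33.3 to 123 and 37.6 to 118) and satellite cell (18.4 to 30.1 and 16.1 to 29.0) markers overlapped, and edgeR called 0 of their genes. The part of these differences in the levels of Acat1 and Oxct1 was not tested.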

How the data were processed

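SOLiD SAGE libraries were made from 500 ng of total RNA each, per the labels' protocols. The authors deposited raw tag counts by gene symbol, and separately normalized signal values. The submitters' processing notes name DESeq2, mm10 and GRCm38.p1. Aligner, counting rule and DESeq2 version are not given in the sources used here. Signal values deposited by the authors are the counts over a library size factor (relative deviation at most 5.4e-10), and those factors were tried as a scaling. The count table had 360 lines with no symbol and 0 counts.

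Counts were fitted with edgeR 4.0.16 in R 4.3.3 (quasi-likelihood, robust dispersion, TMM, filterByExpr with minimum count 10, group as the only term, Benjamini-Hochberg). The filter kept 11062 genes and removed 2540, Aacs among them; Aacs was taken from the same fit without the filter. SE was taken as the log2 fold change over the root of F. Log2 CPM used a prior count of 2. Ratios were compared by two-sided exact permutation. The code was tested on simulated data. Alternatives used DESeq2 1.42.0, limma 3.58.1 (voom), sva 3.50.0, other scalings, no filter, a replicate block and left-out libraries. Each library was taken as 1 mouse, since the labels give as many mice as libraries.

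The members and lists were chosen with earlier results of these data known. Named are Cpt1b, the 5 members, Bdh2, Slc16a1, Cs and Hmgcs1 whatever their result, per list up to 4 called genes ranked by adjusted p (where none was called, the gene of smallest p), and the 3 genes most correlated with each tested member. Of the genes this rule chose, some are not reported here.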

Additional observations from a re-analysis of the deposited data

Results flagged for a closer look

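Among the 38 groups of libraries examined (19 named genes in controls and in knockouts), 6 held a library far from the others by Dixon's criterion, which chance alone flags in about 1 of 20 groups. Oxct1 was lowest in control replicate 7, at 303 CPM with the next control at 427 CPM, and highest in knockout replicate 2, at 837 CPM with the next at 703 CPM. Aacs was highest in knockout replicate 5, at 0.967 CPM with the next knockout at 0.409 CPM. Bdh2 was highest in knockout replicate 4, at 3.43 CPM with the next at 1.97 CPM. Acss2 was highest in control replicate 7, at 15.3 CPM with the next at 9.09 CPM, and in knockout replicate 4, at 33.0 CPM with the next at 14.7 CPM.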

How the results depend on the processing

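The higher level of Acat1 and its call held under all 24 alternatives run, with log2 fold changes of 0.89 to 0.98 when 1 library was left out. Oxct1 held under 22 of 24. Its log2 fold change was 0.51 to 0.61 without 1 library (lost without knockout replicate 2, edgeR adjusted p = 0.0691). Without 1 library, Bdh1 ran from 0.21 to 0.41, Acat2 from -0.43 to -0.11, Aacs from -1.52 to -0.86, and the log2 differences of the ratios from 1.10 to 1.31 (Acat1 to Acat2), 0.16 to 0.36 (Oxct1 to Bdh1) and 1.30 to 1.81 (Oxct1 to Aacs). In these fits without 1 library the number of ketone enzymes called ran from 1 to 2. The number of all genes called in them ran from 161 to 465 (465 without control replicate 7), beside 240 in the main fit. The surrogate-variable fit called 3 ketone enzymes. Bdh1 passed in the fit that held the first surrogate variable (log2 0.45, edgeR adjusted p = 0.0287); the cause was not tested. Over all genes DESeq2 called 455 (310 higher, 145 lower), the surrogate-variable fit 618 and the fit without control replicate 7 and knockout replicate 4, a choice made with earlier results known, 403.

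Same-numbered mice did not pair: the correlations of their deviations ran from -0.61 to 0.46, and 1 of 7 knockouts correlated best with the control of its own number. With the replicate block 117 genes (1.06%) were called, 1 ketone enzyme among them, Oxct1 stood at 0.60 (edgeR adjusted p = 0.132) and the log2 ratio of Oxct1 to Aacs at 1.51 (exact permutation p = 0.0469, adjusted p = 0.0703). The block also left 0 regulators and 0 genes of leucine and isoleucine breakdown called, so Srebf1, Insig1 and Dbt did not pass in it. Depth limits Aacs, with at most 14 tags per library, and Acat2, with at most 39.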
